A study of Homo sapiens with 4 samples.

Results

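Immune checkpoint ligands and ligands of natural killer (NK) cell receptors are surface or secreted proteins through which a tumour cell is read by T cells, NK cells and macrophages. The 10 genes described here are CD274 and PDCD1LG2 (PD-L1 and PD-L2), CD276 (B7-H3), PVR and NECTIN2, CD47, LGALS9 (galectin-9), MICA, MICB and ULBP2. They were chosen by name, as the rows with these gene names among 58174 listed genes, and all 10 were found. The ligands of PD-1 restrain T cells. PVR and NECTIN2 are shared by the activating receptor DNAM-1 and the inhibitory receptor TIGIT, and CD47 binds SIRPA on macrophages and limits phagocytosis. MICA, MICB and ULBP2 are induced by cell stress and engage NKG2D, an activating receptor of NK cells and T cells.

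Transcripts were sequenced from the LM3 line (hepatocellular carcinoma) and the RBE line (intrahepatic cholangiocarcinoma), each 48 h after transfection with si-FENDRR, an RNA duplex directed at the long noncoding transcript FENDRR, or with the control si-NC, both delivered with a Lipofectamine lipid reagent. Each line had 1 library per transfection, 4 libraries in all, and the labels name no separate cultures, so nothing within a line has a replicate check. Levels are FPKM, fragments scaled by gene length and library size, which allows levels of different genes to be compared. Where a pair of values is given for a line, si-FENDRR comes first. The labels name no immune cells in the cultures. Fewer expressing cells and less RNA per cell cannot be told apart in such bulk libraries.

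FENDRR was listed at 0 FPKM in all 4 libraries, si-NC included, so the knockdown could not be checked and the libraries are compared by label. In each library 13437 to 13682 genes reached 1 FPKM. Read counts were not recovered, and no interval from counting can be given. Of 12 hepatocyte markers, 10 were tested, with 5 higher in LM3 and 4 higher in RBE. Of 12 cholangiocyte markers, 10 were tested, with 8 higher in RBE and 1 in LM3. The hepatocyte product ALB was at 35.7 and 33.3 FPKM in LM3 against 0.251 and 0.27 in RBE, and the biliary keratin KRT7 at 7.21 and 6.02 against 429 and 391. Going against the labels, SERPINA1, of the 4 hepatocyte markers higher in RBE, was at 0.0957 and 0.0892 FPKM in LM3 against 56.8 and 82.5. SPP1, the cholangiocyte marker higher in LM3, was at 1118 and 909 FPKM there against 515 and 504 in RBE. The hepatocyte gene APOA1 was at 0.071 FPKM or less in every library, and the cholangiocyte gene CFTR at 0.023 or less, so neither separated the lines. Of 12 leukocyte markers, 2 or 3 reached an FPKM of 1 in a library, and the summed level was 69.2 to 71 FPKM in LM3 and 28.3 to 28.6 in RBE, carried by CD68, ITGAM and, in RBE, LYZ. The leukocyte genes PTPRC, CD3D, CD3E and MS4A1 were at 0.13 FPKM or less in every library. In LM3, CD8A was at 0.87 and 0.536 FPKM, CD163 at 0.69 and 0.457, and NKG7 at 0.371 and 0.637. In RBE each of these was at 0.0845 FPKM or less.

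The promoters of 4 genes are printed. MICA, MICB and ULBP2 are included because they give the clearest pattern among the 10. MICA and MICB are close relatives whose levels were ordered oppositely in the lines, and ULBP2 went with MICB. CD274 is included although it was under 1 FPKM in every library, near 0 in LM3 and at 0.712 and 0.585 in RBE. RefSeq sequences of build GRCh38.p14 were matched by symbol for 9 of the 10 genes, all but PDCD1LG2, and cover 250 bases before to 50 after the start. Each is given 5′ to 3′ on the gene's strand, with motif matches in capitals. The motifs searched, on both strands, were the heat shock element core GAANNTTC, the interferon-stimulated response element core GAAANNGAA, the gamma-activated sequence TTCNNNGAA, the GC box GGGCGG, the CCAAT box CCAAT, the TATA box TATAAA and the E-box CACGTG. MICA lies at chr6:31403345-31403644, MICB at chr6:31497895-31498194, ULBP2 at chr6:149941764-149942063 and CD274 at chr9:5450292-5450591, all on the plus strand. The windows of MICA and MICB lie inside the longer gene models of GENCODE.
MICA: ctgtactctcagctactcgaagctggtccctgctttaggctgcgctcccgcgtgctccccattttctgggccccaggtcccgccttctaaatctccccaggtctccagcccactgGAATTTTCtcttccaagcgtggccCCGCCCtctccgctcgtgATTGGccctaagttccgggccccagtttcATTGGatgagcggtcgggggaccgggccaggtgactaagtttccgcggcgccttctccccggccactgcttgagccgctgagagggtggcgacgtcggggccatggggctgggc
MICB: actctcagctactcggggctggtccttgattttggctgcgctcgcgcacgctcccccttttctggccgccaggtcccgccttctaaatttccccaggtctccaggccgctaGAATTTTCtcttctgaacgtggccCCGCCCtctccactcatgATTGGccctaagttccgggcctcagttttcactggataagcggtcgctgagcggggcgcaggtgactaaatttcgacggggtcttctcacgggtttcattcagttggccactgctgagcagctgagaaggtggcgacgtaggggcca
ULBP2: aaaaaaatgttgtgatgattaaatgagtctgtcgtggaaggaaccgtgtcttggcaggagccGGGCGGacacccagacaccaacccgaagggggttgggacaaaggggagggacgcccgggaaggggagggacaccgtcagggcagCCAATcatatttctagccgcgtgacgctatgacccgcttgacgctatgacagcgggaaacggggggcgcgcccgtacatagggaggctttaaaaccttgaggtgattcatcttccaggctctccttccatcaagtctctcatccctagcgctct
CD274: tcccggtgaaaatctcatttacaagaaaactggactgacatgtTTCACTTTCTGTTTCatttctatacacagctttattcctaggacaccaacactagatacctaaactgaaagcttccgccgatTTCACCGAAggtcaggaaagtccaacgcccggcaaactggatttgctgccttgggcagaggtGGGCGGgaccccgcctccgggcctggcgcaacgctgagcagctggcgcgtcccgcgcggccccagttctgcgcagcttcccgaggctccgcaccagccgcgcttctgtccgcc

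The promoters of MICA and MICB were identical at 246 of 316 aligned positions (77.8%), and no other pair among the members' promoters passed 53.3%. Both held the same heat shock core, GAATTTTC, starting at -135 in MICA and -139 in MICB, counted from the start site, with -1 the base before it. A core of this kind is found in 6.77% of all 35116 promoters of the table. Both also held a GC box (45.0% of all promoters) and a CCAAT box (34.6%), of which MICA had 2 and MICB 1. The ULBP2 window held 1 GC box and 1 CCAAT box and no heat shock core. In the CD274 window, 2 interferon-stimulated response element cores (8.11% of promoters), which overlap each other, start at -207 and -201, and a gamma-activated sequence (7.66%) starts at -125. These matches are letters in a window, not measured binding.

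The ligands were unevenly present (plot of ligand levels). NECTIN2 had the highest level of the 10 in every library, and PDCD1LG2 was listed at 0 in all 4. In the LM3 libraries NECTIN2 was followed by CD276, CD47 and LGALS9, whose ranges overlap, then by PVR and MICB, whose order differed between the libraries, and by MICA and ULBP2. In RBE it was followed by CD276, CD47 and MICA, in another order in each library, then by PVR and LGALS9, with CD274, MICB and ULBP2 all under 1 FPKM. Of the 10 genes, 8 reached an FPKM of 1 in some library and entered the test over 15930 genes. CD274 and PDCD1LG2 did not.

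**Figure D1:**
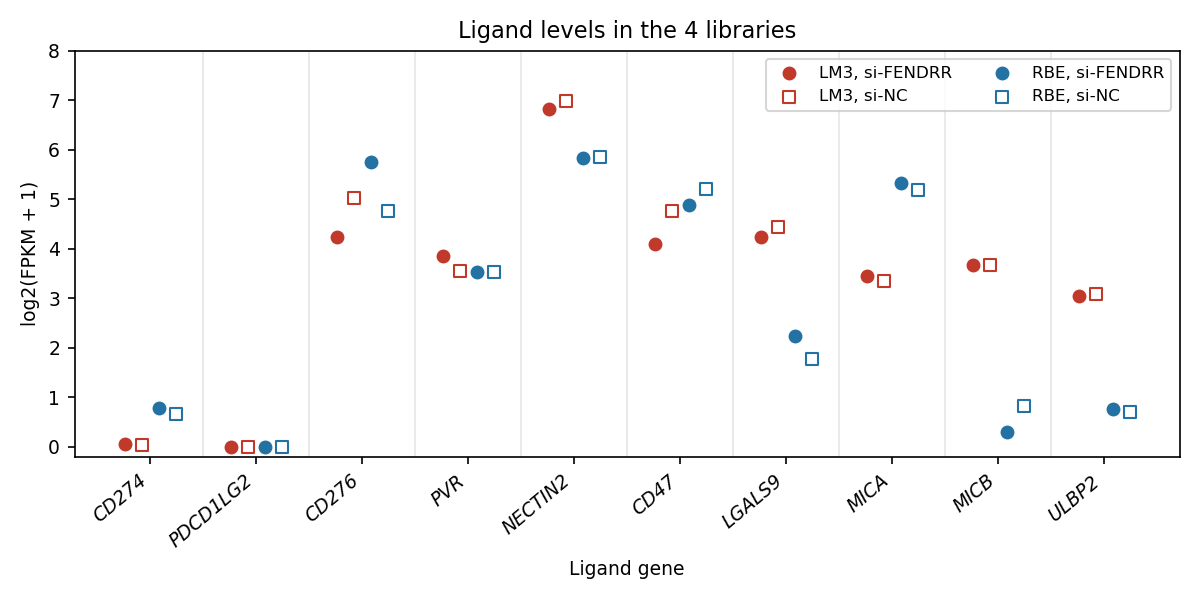
Level of each ligand gene as log2(FPKM + 1) in the 4 libraries, LM3 in red and RBE in blue, with filled circles for si-FENDRR and open squares for si-NC. MICB, ULBP2, LGALS9 and NECTIN2 sit higher in both LM3 libraries, MICA, CD47 and CD274 in both RBE libraries, and PDCD1LG2 is at 0 in all 4.

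CD274 (ENSG00000120217, chromosome 9, 5450503 to 5470566, plus strand) was at 0.0457 FPKM with si-FENDRR and 0.0217 with si-NC in LM3, and in RBE at 0.712 and 0.585. Both RBE libraries were above both LM3 libraries, and all were below the level set for testing. With no filter on low values the gene passed between the lines (log2 difference of LM3 minus RBE -0.67 ± 0.09 SE, adjusted p = 0.0252 by limma). PDCD1LG2 (ENSG00000197646, chromosome 9, 5510570 to 5571254, plus strand), its neighbour on the chromosome, was listed at 0 in every library. A listed 0 can be a failed estimate.

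Among the NKG2D ligands, the lines differed in which members were high: MICA in RBE, MICB and ULBP2 in LM3. MICA (ENSG00000204520, chromosome 6, 31399784 to 31415315, plus strand) was at 9.96 FPKM with si-FENDRR and 9.25 with si-NC in LM3, and in RBE at 39.1 and 35.4. Both RBE libraries were above both LM3 libraries (log2 difference of LM3 minus RBE -1.85 ± 0.11 SE, n = 2 libraries per line, adjusted p = 0.00166 by limma). MICB (ENSG00000204516, chromosome 6, 31494881 to 31511124, plus strand) was at 11.7 and 11.8 FPKM in LM3 against 0.23 and 0.759 in RBE. Here both LM3 libraries were the higher ones (3.12 ± 0.18 SE, adjusted p = 0.00156 by limma). ULBP2 (ENSG00000131015, chromosome 6, 149942000 to 149949235, plus strand), which is held to the membrane by a lipid anchor, was at 7.21 and 7.46 FPKM in LM3 against 0.706 and 0.618 in RBE (2.33 ± 0.13 SE, adjusted p = 0.00153 by limma). As the RBE levels are under 1 FPKM, the sizes depend on the pseudocount: at 0.1 they were 4.48 for MICB and 3.29 for ULBP2, and at 5 they were 1.61 and 1.12, past the threshold each time.

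The 8 NKG2D ligand genes, MICA, MICB, ULBP1, ULBP2, ULBP3, RAET1E, RAET1G and RAET1L, summed to 31.8 FPKM with si-FENDRR and 31.3 with si-NC in LM3, and in RBE to 49.5 and 45.5. In RBE, MICA made up 78.9% and 77.9% of that sum, and MICB 0.463% and 1.67%. In LM3 the sum was spread over MICB (36.9% and 37.6%), MICA (31.3% and 29.6%) and ULBP2 (22.7% and 23.9%). The ratio of MICA to MICB was 0.849 and 0.786 in LM3 and 170 and 46.6 in RBE, and the gap between the RBE values comes from MICB levels under 1 FPKM. The remaining 5 genes took 9.11% and 8.93% in LM3 and 19.2% and 19.1% in RBE. RAET1G (ULBP5) was at 2.99 and 3.35 FPKM in RBE and at 0.0849 and 0.107 in LM3, and RAET1E (ULBP4) at 1.63 and 1.78 against 0.181 and 0.146. RAET1G and RAET1E were thus higher in RBE, the reverse of ULBP2 (log2 differences -1.93 ± 0.15 SE for RAET1G and -1.22 ± 0.15 for RAET1E, adjusted p = 0.00235 and 0.00606 by limma).

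Shared sequence bears on these values. Of the distinct 50-base windows in ULBP2 transcripts, 32.2% also occur in transcripts of other genes, mostly RAET1L (29.4%) and RAET1G (11.6%), so reads may be split between these genes. RAET1L was at 0 and 0.41 FPKM in LM3 against 0.981 and 1.52 in RBE. For MICA and MICB the share found in any other gene was 2.43% and 2.86%, with 45 windows common to the pair. Exons of MICA share bases on the same strand with HCP5, which was at 0 and 0.0328 FPKM in LM3 against 1.05 and 1.51 in RBE. Both genes lie in the polymorphic MHC, and the effect of allele differences from the reference on alignment was not tested.

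For the ligands of DNAM-1 and TIGIT, one differed between the lines and the other was nearly level. NECTIN2 (ENSG00000130202, chromosome 19, 44846175 to 44889228, plus strand), a cell adhesion molecule, was at 112 FPKM with si-FENDRR and 125 with si-NC in LM3, and in RBE at 55.8 and 57.1. Both LM3 libraries were above both RBE libraries (1.06 ± 0.11 SE, n = 2 libraries per line, adjusted p = 0.00411 by limma). PVR (ENSG00000073008, chromosome 19, 44643798 to 44663583, plus strand), the poliovirus receptor CD155, was at 13.4 and 10.7 FPKM in LM3 against 10.5 and 10.6 in RBE. The LM3 library with si-FENDRR stood above the other libraries, which were close to each other (0.16 ± 0.14 SE, adjusted p = 0.368 by limma). NECTIN2 exceeded PVR 8.4- and 11.7-fold in LM3 and 5.32- and 5.37-fold in RBE. PVR shares exon bases with CEACAM19 on its strand, at 2.58 to 4.51 FPKM, and NECTIN2 with AC011481.2 on the opposite strand, at 1.04 FPKM or less.

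LGALS9 (ENSG00000168961, chromosome 17, 27629798 to 27649560, plus strand), a secreted galectin that binds TIM-3 among other receptors, was at 17.9 FPKM with si-FENDRR and 20.8 with si-NC in LM3, and in RBE at 3.72 and 2.43. The LM3 libraries were the higher ones (2.34 ± 0.21 SE, adjusted p = 0.0031 by limma, and 1.60 with a pseudocount of 5). Of its 50-base windows 13.2% occur in other genes, among them AC015688.4, LGALS9B, LGALS9C and the pseudogene LGALS9DP, which were at 1.62 FPKM or less, and its exons share bases with AC015688.5, at 0.519 FPKM or less. CD47 (ENSG00000196776, chromosome 3, 108043298 to 108091025, minus strand) was at 16.1 and 26.3 FPKM in LM3 against 28.4 and 35.8 in RBE. The groups did not overlap and CD47 was higher in RBE (-0.61 ± 0.14 SE, adjusted p = 0.0278 by limma), but the call was lost with no filter on low values (adjusted p = 0.0576) and without the transfection term (adjusted p = 0.115). Over 9 alternatives its adjusted p ran from 0.0187 to 0.115.

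CD276 (ENSG00000103855, chromosome 15, 73683966 to 73714518, plus strand), a B7 family protein that restrains T cells, was at 17.8 FPKM with si-FENDRR and 31.6 with si-NC in LM3, and in RBE at 53.1 and 26.3. The lines overlapped: the si-NC libraries differed little, LM3 being slightly higher, and the si-FENDRR libraries lay furthest apart. The difference between the lines did not pass (-0.63 ± 0.46 SE, adjusted p = 0.298 by limma). It was 0.26 between the si-NC libraries and -1.52 between the si-FENDRR libraries.

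Counted together, 6 of the 8 tested ligands (75%) passed between the lines, where 58.7% of all tested genes did. Of these, 4 were higher in LM3 (32.3% of all tested genes) and 2 higher in RBE (26.4%). No condition was repeated. The spread behind these calls is how far the difference between the lines itself varied between the transfections, moderated by the prior of the fit. The count is not far above the background and says nothing particular about the ligands. By size, 5 of 8 ligands (62.5%) differed at least 2-fold, against 31.2% of all tested genes.

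**Figure D2:**
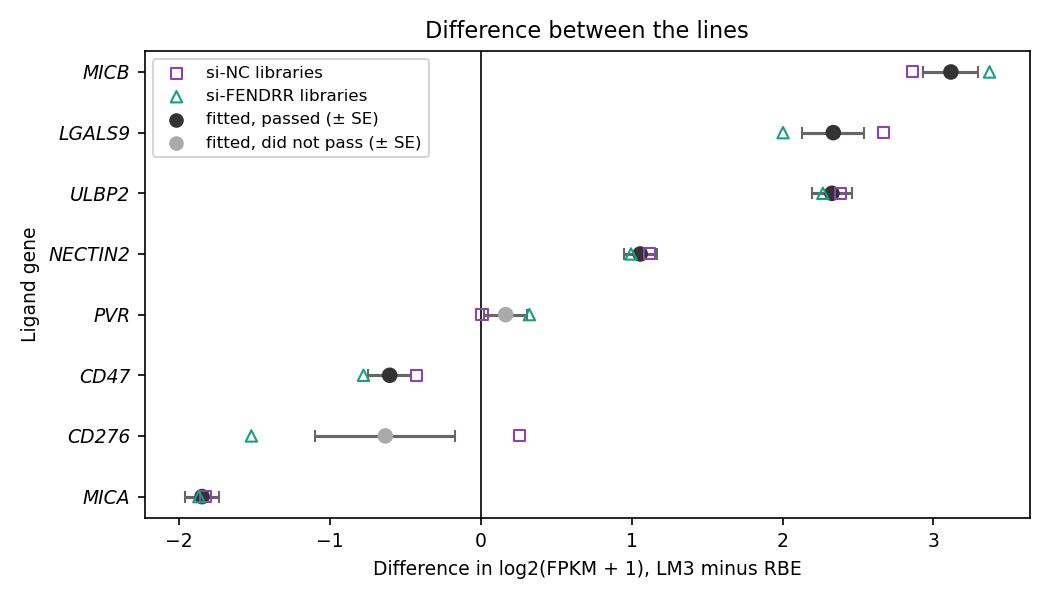
Difference in log2(FPKM + 1) of LM3 minus RBE for the 8 tested ligands: filled circles with SE bars are the fitted values (dark where they passed at an adjusted p of 0.05, grey where not), open squares the si-NC libraries and open triangles the si-FENDRR libraries. MICB, LGALS9, ULBP2 and NECTIN2 lie to the right (higher in LM3), MICA and CD47 to the left, and only for CD276 do the pairs of libraries fall on opposite sides of 0.

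Between si-FENDRR and si-NC over both lines, no ligand passed, and neither did any other gene (0 of 15930 tested, 0%, adjusted p under 0.05 by limma, with 657 genes at an unadjusted p under 0.05, where chance gives 796). CD47 had the smallest unadjusted p of the 8. Both lines had less of it with si-FENDRR, 16.1 FPKM against 26.3 (LM3) and 28.4 against 35.8 (RBE), ratios of 0.613 and 0.793 (log2 difference -0.50 ± 0.14 SE, n = 2 lines, unadjusted p = 0.0255, adjusted p = 0.959 by limma). Over its alternatives the adjusted p ran from 0.93 to 1. Of all tested genes, 0.483% were lower in both lines by at least as much in each.

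On the log2(FPKM + 1) scale CD276 had the largest differences of the 8 within either line, in opposite directions. As a ratio of FPKM, that of MICB in RBE was larger, at 0.302 between values under 1 FPKM. With si-FENDRR, CD276 was at 0.565 times its si-NC level in LM3 and at 2.02 times in RBE, log2 differences of -0.79 and 0.99. In LM3 3.86% of tested genes, and in RBE 1.81%, differed by at least as much in size. Over both lines the fitted difference was 0.10 ± 0.46 SE (adjusted p = 0.987 by limma). No exon of CD276 shares bases with another listed gene, and 1.46% of its 50-base windows occur in other genes. With 1 library per line and transfection, the difference between the lines could not be tested.

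For the other ligands the log2 difference of si-FENDRR minus si-NC was smaller on that scale than that of CD276 in each line. NECTIN2 was at -0.16 in LM3 and -0.03 in RBE, and MICA at 0.10 and 0.14. MICB was at 11.7 against 11.8 FPKM in LM3 and at 0.23 against 0.759 FPKM in RBE, a log2 difference of -0.52 between values under 1 FPKM. LGALS9 was at -0.21 in LM3 and 0.46 in RBE, and PVR at 0.30 and -0.02. ULBP2 was at -0.04 and 0.08, and CD274 at 0.03 and 0.11. In neither line did a ligand reach the 2-fold rule on FPKM + 1 that 2.13% of tested genes reached in LM3 and 1.75% in RBE. CD276 in RBE came closest and reached it with library totals as the scaling, and with a pseudocount of 0.1 it and MICB did. Of the 8 ligands, 1 was higher in both lines, 3 lower in both and 4 opposite, against 26.9%, 21.8% and 47.1% of all tested genes.

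**Figure D3:**
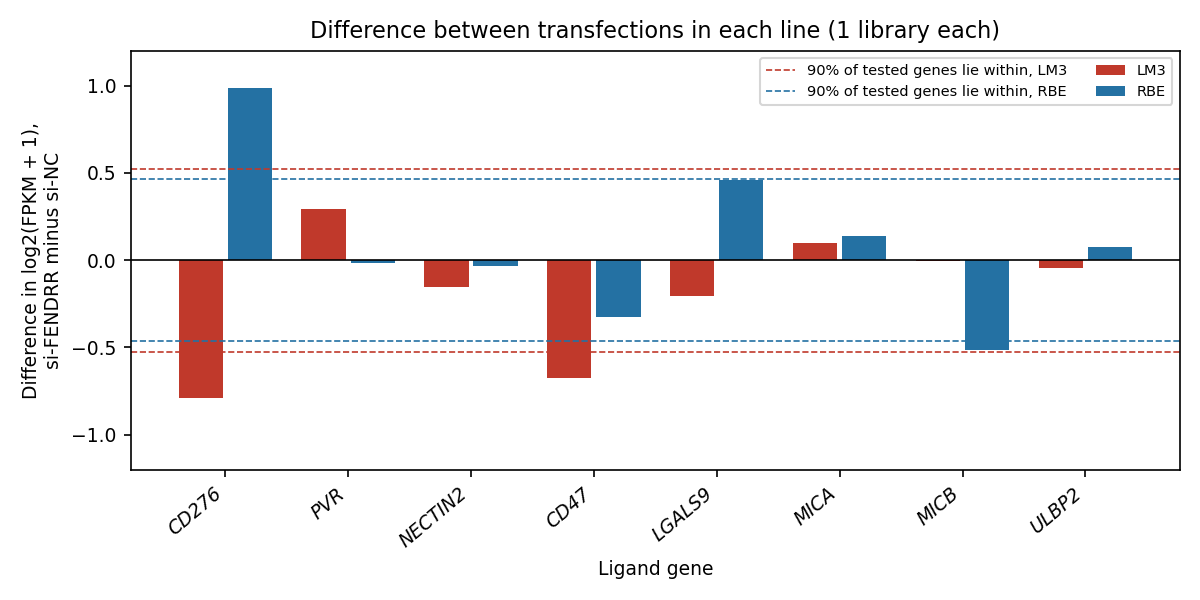
Difference in log2(FPKM + 1) of si-FENDRR minus si-NC for the 8 tested ligands, in LM3 (red bars) and RBE (blue bars), with 1 library behind each value. Dashed lines mark the size that 90% of all tested genes stay within (0.52 in LM3 and 0.47 in RBE), which CD276 passes in both lines in opposite directions, CD47 in LM3 and MICB in RBE.

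Among 28 further checkpoint ligands and related surface or secreted genes, 22 were tested and 15 (68.2%, against 58.7% of all tested genes) passed between the lines by limma, 7 higher in LM3 and 8 in RBE. TNFRSF14 (HVEM), a ligand of BTLA, was at 64.4 and 74.8 FPKM in LM3 against 6.76 and 6.22 in RBE. FGL1, a secreted ligand of LAG-3, was at 19.6 and 14 FPKM in LM3 against 0 and 0.422 in RBE. In the other direction CD24, a ligand of Siglec-10, was at 95 and 112 FPKM in RBE and 0.473 and 0.468 in LM3, and CADM1, which binds CRTAM on lymphocytes, at 12.1 and 10.6 against 0.331 and 0.23. LGALS1 was the most abundant, at 1104 and 1039 FPKM in RBE against 293 and 287 in LM3, while LGALS3 was at 52.5 to 61.7 in all 4 and did not pass (adjusted p = 0.48). Between the transfections none passed. HMGB1, which has been described as a TIM-3 ligand, was at 57.2 FPKM against 40.8 (LM3) and 62.7 against 35.3 (RBE) (unadjusted p = 0.00959, adjusted p = 0.959 by limma).

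Of 17 other genes for NK cell ligands and adhesion, 14 were tested and 10 (71.4%, against 58.7% of all tested genes) passed between the lines, 5 in each direction. ICAM1, the adhesion ligand of LFA-1, was at 118 and 109 FPKM in LM3 against 0.284 and 0.109 in RBE (6.59 ± 0.12 SE, adjusted p = 0.000584 by limma). CLEC2B, a ligand of the NK receptor NKp80, was at 8.21 and 4.97 FPKM in LM3 against 0 and 0.0397 in RBE. HLA-E, the ligand of inhibitory NKG2A, was at 61.1 and 75.4 FPKM in LM3 against 27.7 and 31.3 in RBE. BAG6, a chaperone that can engage NKp30, was at 54.4 and 57.4 against 67.8 and 82.3 and higher in RBE (adjusted p = 0.0439). ULBP3 was at 1.98 and 1.63 FPKM in LM3 against 2.29 and 0.616 in RBE. None passed between transfections.

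Genes that place, protect or shed these ligands were present in both lines, with 16 of 16 tested and 11 (68.8%, against 58.7% of all tested genes) passing between the lines, 4 higher in LM3 and 7 in RBE. Of the 16, 1 (6.25%) differed at least 2-fold, against 31.2% of all tested genes. CMTM4, which with its relative CMTM6 stabilises PD-L1, was at 3.85 FPKM with si-FENDRR and 7.19 with si-NC in LM3, and in RBE at 10.6 and 9.75 (adjusted p = 0.0526 by limma between the lines). QPCTL, the enzyme that modifies CD47 for SIRPA binding, was at 13 and 17.4 FPKM in LM3 against 9.38 and 9.52 in RBE, higher in LM3 (adjusted p = 0.03), where CD47 itself was lower. PDIA6 (ERp5), a disulfide isomerase that takes part in MICA shedding, was at 31.1 and 33.1 FPKM in LM3 against 122 and 135 in RBE (-1.97 ± 0.11 SE, adjusted p = 0.00136 by limma), and ADAM9 at 39 and 39.2 against 62.6 and 52.3. MICA was likewise higher in RBE. Surface and shed protein were not measured.

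Interferon signalling induces PD-L1 through JAK kinases and, further down, IRF1. Of 18 genes of this pathway, 16 were tested and 10 (62.5%, close to the 58.7% of all tested genes) passed between the lines by limma, 7 higher in LM3 and 3 in RBE. IRF9, a factor of the type I interferon response, was at 4.87 and 3.93 FPKM in LM3 against 8.71 and 9.7 in RBE, higher in RBE (adjusted p = 0.0126 by limma). IFNGR1, a chain of the interferon gamma receptor, had the reverse order, at 68.1 and 61.1 against 16.4 and 13.9, and so did TYK2, at 30.2 and 44.9 against 14.7 and 13. IRF1 was at 10.9 FPKM in LM3 with si-FENDRR and 6.7 with si-NC, and in RBE at 11.1 and 8.54 (unadjusted p = 0.0251, adjusted p = 0.959).

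Of 14 stress and growth regulators linked to induction of NKG2D ligands or PD-L1, 11 (78.6%, against 58.7% of all tested genes) passed between the lines by limma, 8 higher in LM3 and 3 in RBE. HSF1, the heat shock factor, was at 66.6 and 73 FPKM in LM3 against 45.5 and 46.4 in RBE. Its order between the lines was that of MICB and not of MICA, and a link to either was not tested. MYC was at 12.8 and 6.04 FPKM in LM3 against 3.07 and 2.3 in RBE, and NFKB1 at 16.4 and 13.6 against 5.77 and 5.64. HIF1A was higher in RBE, at 92.6 and 73.7 FPKM against 32.5 and 31.1. RELA was at 43.1 against 47.5 in LM3 and 22.2 against 48.3 in RBE.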

How the data were processed

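The 4 libraries were grouped by line and transfection as labelled, 1 per group. The deposited values are FPKM made by the authors, 1 column per library, per the file headers. FastQC, HISAT2 and hg38 are named in the submitters' processing notes. For the FPKM program, annotation and strand setting: not given in the sources used here. Exons of NECTIN2 and of TNFRSF14, FGL1, RAET1E, RAET1G, BAG6, CLEC2B, ICAM1, QPCTL, PDIA6, IRF1, HSF1, HIF1A, SIRPA, CD68 and LYZ overlap genes on the opposite strand, and IRF9, HIF1A and CD68 share bases with a gene on their own strand, so their values may include reads of those genes. Single-library files equal the table in 4 of 4 cases. Low values were within 0.02 of whole fragments for only 9.0% to 13.7% of single-exon genes, so counts were not recovered. The best step, read as 1 fragment, would mean 20.1 to 23.3 fragments per library in units of 1e6.

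Fitted were the 15930 genes that reached 1 FPKM in some library as log2(FPKM + 1), in limma 3.58.1 (R 4.3.3) with terms for line and transfection, a trended prior and 1 residual degree of freedom. P-values measure only the spread between these libraries. They were Benjamini-Hochberg adjusted over all genes, with a threshold of 0.05. The fit was tested on simulated data. Fold changes on this scale understate changes of low genes. Overlaps and windows came from GENCODE release 29 on GRCh38. Promoters came from RefSeq.

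The members and lists were chosen with earlier results of these data known. From each list the text could name the 2 highest and 2 lowest members in either difference and the 2 most abundant, and of receptors and leukocyte markers any at an FPKM of 1. Genes named outside this rule were chosen after their values were seen. They are ULBP1, CMTM6, genes sharing sequence with a member, and some cell type markers. These markers are ALB, KRT7, SERPINA1, SPP1, APOA1, CFTR, PTPRC, CD3D, CD3E, MS4A1, CD8A, CD163 and NKG7. Some genes of the lists are not reported here by name. MARCHF8 stands in the table as a calendar date and was matched by its identifier. Alternatives covered pseudocount, filter, scaling, model terms, prior and single lines. Restricting the fit to protein-coding genes without overlap, and a rule of 1.5-fold, were chosen after seeing the data.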

Additional observations from a re-analysis of the deposited data

Results flagged for a closer look

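In 4 of the 8 tested ligands the difference between si-FENDRR and si-NC had opposite signs in the lines, as it had in 47.1% of all tested genes. For ULBP2 (-0.043 in LM3 and 0.076 in RBE) and for PVR in RBE (-0.019) the signs rest on small differences. With 1 pair per line the difference was not tested in any of them. For CD276 the log2 difference in RBE exceeded that in LM3 by 1.78. For LGALS9 it did so by 0.66 and for ULBP2 by 0.12. For PVR the difference in RBE was the lower one, by -0.31.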

How the results depend on the processing

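Transfection calls by limma stayed at 0 under the 9 alternatives that could be fitted (32 to 1079 genes at an unadjusted p under 0.05), and the members called between the lines numbered 4 to 6, with 4 where only 5 members were tested. The within-line 2-fold counts moved with the pseudocount: at 0.1 to 940 genes in LM3 and 818 in RBE, and at 5 to 100 and 83. A 1.5-fold rule gave 1269 and 999. Signs turned only for transfection values that did not pass, and for CD276 between the lines. With LM3 alone, CD276 was at -0.79, LGALS9 at -0.207 and ULBP2 at -0.043. With RBE alone, PVR was at -0.019. ULBP2 was at -0.003 with a pseudocount of 5 and at -0.006 with median-of-ratios scaling. With si-NC alone, CD276 was at 0.255 between the lines. The single-line values are also what leaving out 1 library gives, and have no test. Median-of-ratios scaling moved the median of all genes between the lines from 0.09 to 0.02. For CD47, lost in 2 alternatives, the cause was not tested. No counts limit the values, so precision at levels under 1 FPKM (CD274, and MICB and ULBP2 in RBE) is unknown.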

Other observations

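Receptors for these ligands were mostly below 1 FPKM. Of 14 receptor genes, 3 reached an FPKM of 1 in some library. SIRPA, the receptor of CD47, was at 7.64 and 6.65 FPKM in LM3 against 17.9 and 18.8 in RBE, higher in RBE (-1.25 ± 0.13 SE, adjusted p = 0.00435 by limma), so that the line with more CD47 also had more SIRPA. HAVCR2 (TIM-3), a receptor of galectin-9, was at 0 and 0.0332 FPKM in LM3 against 1.13 and 1.45 in RBE, the reverse of LGALS9, and shares exon bases with MED7. PVRIG, a receptor of NECTIN2, was at 0.518 and 1.79 FPKM in LM3 against 0.125 and 0 in RBE, and shares exon bases with STAG3.

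Of the leukocyte markers above 1 FPKM, CD68 was at 60.1 and 62.2 FPKM in LM3 against 14.2 and 13.9 in RBE, ITGAM at 8.75 and 5.21 against 1.4 and 1.64, and LYZ at 0.128 and 0 against 12.7 and 12.5. All 3 passed between the lines by limma (adjusted p = 0.00139, 0.00865 and 0.000813).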
